A study of Bos taurus with 6 samples.

Results

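The microRNAs (miRNAs) miR-143 and miR-145 are neighbours in the genome, and their reads were described across 6 small RNA libraries of cultured bovine cells. Both were found by name among the miRNA rows of the read table, as bta-miR-143 and bta-miR-145, where bta- stands for cattle, which gave 2 members of 771 known miRNA rows. The study compared 3 samples labelled preadipocytes with 3 labelled adipocytes, all from Holstein cattle, at passage 4 to 6, with adipose tissue as the named source. Preadipocytes are cells already set to become fat cells, and adipocytes are those fat cells. The growth text, identical for all 6 samples, names F12/DMEM medium with 10% fetal bovine serum and 1% antibiotics, and induction of preadipocytes with insulin, dexamethasone, rosiglitazone and IBMX, so the cell type label alone separates the groups. The sources used here give neither the length of the induction nor the number of animals, nor whether replicates were separate cultures. The p-values therefore cover the spread among these samples only, and that spread may be technical. No messenger RNA was measured here, so the cell type labels could not be checked against fat cell genes.

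The miR-143 and miR-145 hairpins are cut from 1 primary transcript, which is driven in smooth muscle by serum response factor and its partner myocardin. Each hairpin is then processed on its own, so the amounts of the mature miRNAs need not move together. Both are abundant in smooth muscle cells and fibroblasts, where miR-145 represses the transcription factor KLF4. In cultured preadipocytes miR-143 has been described as favouring fat cell differentiation, in part through the kinase gene MAPK7, and miR-145 as restraining it. In the RefSeq annotation of assembly ARS-UCD2.0, with genes ordered by start, no gene is listed between MIR143 and MIR145. The next in this order are the long non-coding RNA gene LOC132345768 on the side of MIR143 and the casein kinase gene CSNK1A1 on that of MIR145. The order does not show whether LOC132345768 ends before MIR143 or spans it. No coordinates are given, because the build behind the table is not stated.

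In the adipocytes the balance of the pair lay further towards miR-143. There were 20.3 ± 5.97 miR-143 reads per miR-145 read in adipocytes and 7.92 ± 1.75 in preadipocytes (SD, n = 3 each), and the groups did not overlap. Gaps of this kind were common. Set against miR-143 reads, the groups did not overlap for 39.2% of the 413 other tested miRNAs. Among 28 other pairs of neighbouring miRNAs they did not overlap in 11 (39.3%), and 6 of the 28 differed at least as much. The level of miR-145 was lower in adipocytes by an estimate that missed the threshold of the test over all miRNAs. In such bulk samples fewer cells that hold a miRNA and less of it per cell cannot be told apart. The level of miR-143 overlapped between the groups and did not pass the test, and its direction depended on how libraries were scaled.

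The libraries held 14525284 to 22283754 reads of known and predicted miRNAs. Exon, intron, intergenic and repeat rows took 8.21% to 12% of a library's table in adipocytes and 5.29% to 18.9% in preadipocytes, whose replicate 3 had the lowest share. The most abundant miRNA, miR-21-5p, took 64% to 74.1% of an adipocyte library's miRNA reads and 77.9% to 80.2% of a preadipocyte library's, so the level of every other miRNA depended on whether libraries were scaled by total miRNA reads or by TMM factors (edgeR's scaling, which sets a typical miRNA near no change). These factors were 1.02 to 1.40 in adipocytes and 0.734 to 0.846 in preadipocytes. Levels are given both ways, as RPM (reads-per-million of all miRNA reads in the library) and as CPM (the same with the library total scaled by its TMM factor), and neither scale has a length term.

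The member with more reads was miR-143, for which 538194, 394299 and 533791 reads were counted in the adipocyte replicates 1, 2 and 3. Preadipocyte replicates 1, 2 and 3 held 456917, 266773 and 614597 of its reads. It ranked between 2 and 6 among the known miRNAs of each library. On the RPM scale its level was 35796, 26093 and 27913 in adipocyte replicates 1, 2 and 3, and 26198, 18366 and 27580.5 in preadipocyte replicates 1, 2 and 3. Adipocyte replicate 1 was the highest and preadipocyte replicate 2 the lowest, while the other 4 libraries lay close together and the groups overlapped. On the TMM scale the order changed. The adipocyte libraries were at 26678, 18666 and 27297 CPM and the preadipocyte libraries at 31232, 21729 and 37554 CPM, now with preadipocyte replicate 3 the highest and adipocyte replicate 2 the lowest, and again with overlap.

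Adipocyte replicates 1, 2 and 3 held 39284, 17957 and 21109 reads of miR-145. The preadipocyte replicates, in the same order, held 70392, 27009 and 82989. Its rank among known miRNAs was 24 to 47 in adipocytes and 12 to 24 in preadipocytes. On the RPM scale the levels were 2613, 1188 and 1104 in adipocyte replicates 1, 2 and 3 and 4036, 1859 and 3724 in preadipocyte replicates 1, 2 and 3. The groups overlapped on this scale, since adipocyte replicate 1 lay above preadipocyte replicate 2. On the TMM scale they did not, with 1947, 850.1 and 1079 CPM in adipocytes and 4811, 2200 and 5071 CPM in preadipocytes, although the gap between the same 2 libraries was narrow. The largest 95% Wilson interval reached 0.376% of the value to either side for miR-143 and 1.46% for miR-145, which covers counting error only and is far below the spread between replicates.

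**Figure D1:**
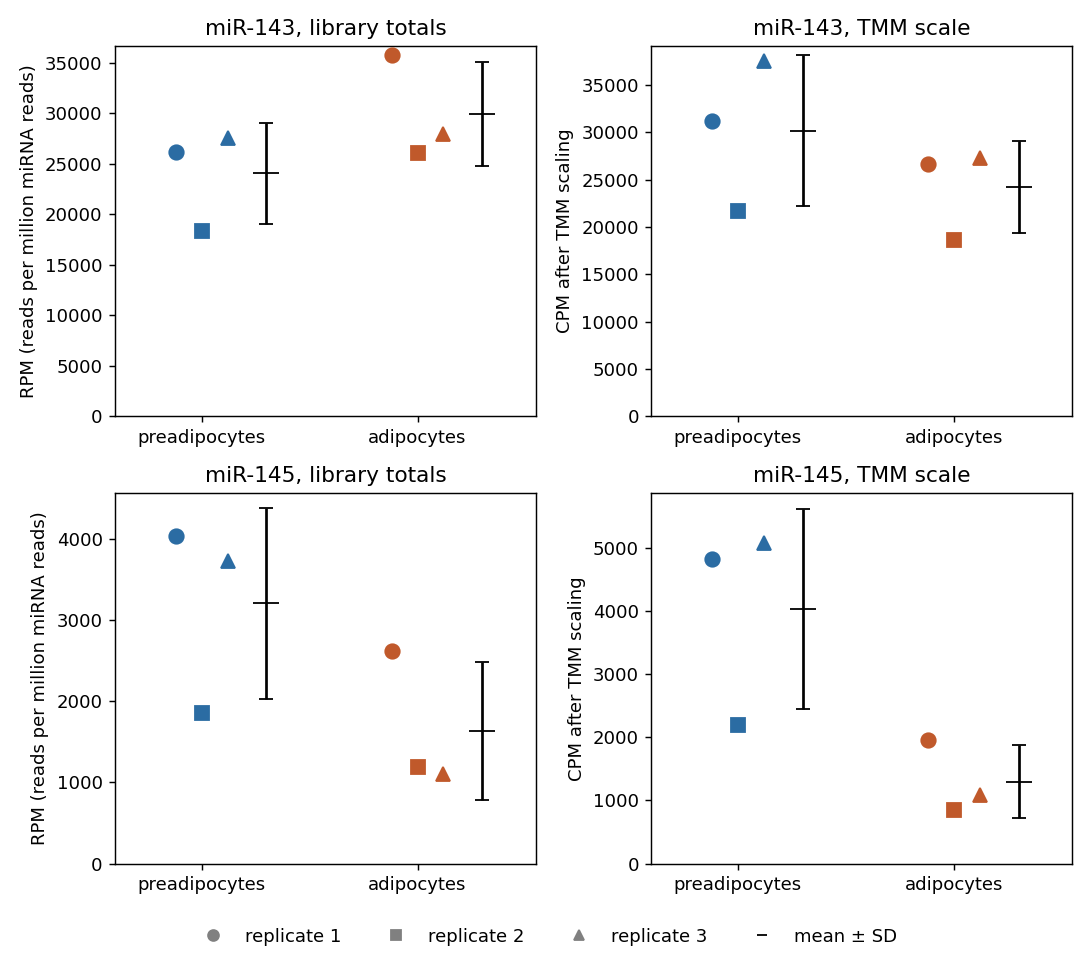
Levels of miR-143 (top) and miR-145 (bottom) in each library, as RPM (left) and CPM after TMM scaling (right), with group mean ± SD in black (n = 3). The groups overlap in the panels of miR-143 and in the left panel of miR-145, and on the TMM scale the highest miR-145 value of adipocytes (1947) lies just below the lowest of preadipocytes (2200).

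The question of the design was which miRNAs differ between the 2 cell types. Of the pair, 0 of 2 members passed edgeR's quasi-likelihood test at a Benjamini-Hochberg (BH) adjusted p of 0.05, where 26 of 414 tested miRNAs (6.28%) passed in either direction and 2.42% passed as lower in adipocytes. At an unadjusted p below 0.05 the pair gave 1 of 2, beside 141 of all 414 (34.1%), and with DESeq2 also 1 of 2, beside 96 of 414 (23.2%), in both cases miR-145. The log2 difference of miR-145, adipocytes over preadipocytes on the TMM scale, was -1.64 (SE 0.45, edgeR BH-adjusted p = 0.0637). It passed with DESeq2 (-1.68, DESeq2 BH-adjusted p = 0.00293), upper-quartile factors (-1.91, edgeR BH-adjusted p = 0.0447), a minimum of 10 CPM (-1.81, edgeR BH-adjusted p = 0.0412) and known miRNAs alone (-1.68, edgeR BH-adjusted p = 0.0477), and over its 20 alternatives the adjusted p ran from 0.00293 to 0.203. The estimate was negative in all 20, at -0.97 with library totals alone and -2.07 without adipocyte replicate 1. For miR-143 the log2 difference was -0.32 (SE 0.28, edgeR BH-adjusted p = 0.434), and it turned to 0.32 with library totals alone (edgeR BH-adjusted p = 0.35). The count of 26 itself moved with each library, to 1 without replicate 1 or 2 of the adipocytes or replicate 2 of the preadipocytes, to 4 without preadipocyte replicate 1, to 8 without adipocyte replicate 3 and to 148 without preadipocyte replicate 3. Its split of 16 higher and 10 lower became 15 and 34 when upper-quartile factors were used and 88 and 9 under library totals alone.

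The scaling also moved the median of all miRNAs. The median log2 difference of the tested miRNAs was -0.02 with TMM factors, -0.31 with upper-quartile factors and 0.62 with library totals alone. Relative to that median miR-143 was at -0.30, -0.27 and -0.30 under these 3 scalings, and miR-145 at -1.62, -1.60 and -1.59. A change of scaling shifts all miRNAs by nearly the same amount. These values therefore had to stay close, and their closeness is no separate evidence. When miR-21-5p was left out of the library totals and no factors were used, the log2 differences were -0.27 for miR-143 and -1.61 for miR-145 (edgeR BH-adjusted p = 0.435 and 0.0625). As a share of the miRNA reads other than miR-21-5p, miR-145 took 0.502% ± 0.197 in adipocytes and 1.53% ± 0.563 in preadipocytes with no overlap (two-sided exact permutation p = 0.1, the smallest that 3 libraries against 3 can give), and miR-143 took 9.5% ± 1.53 and 11.5% ± 2.64 with overlap (exact permutation p = 0.4).

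**Figure D2:**
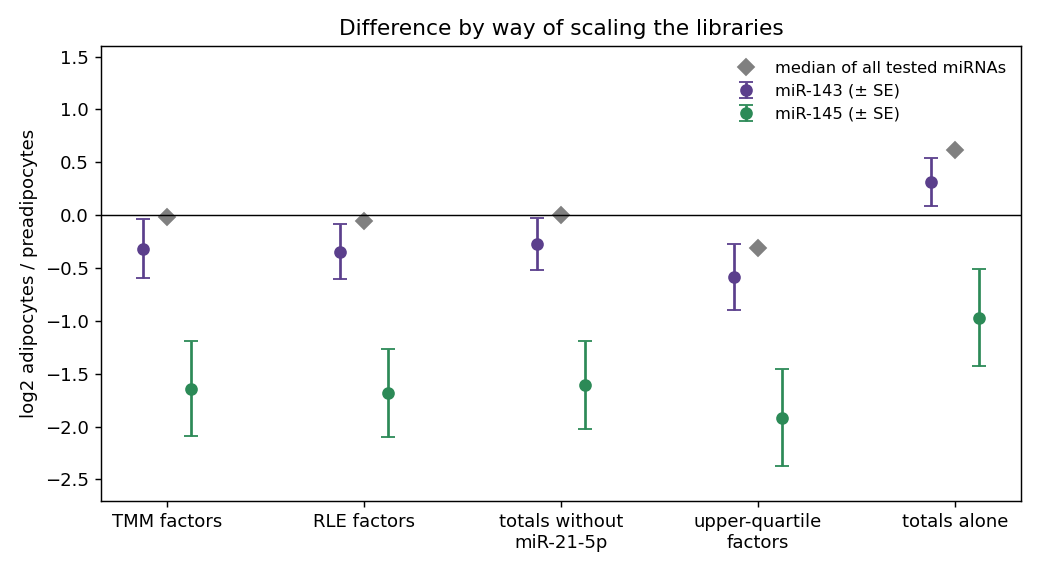
Log2 difference of adipocytes over preadipocytes (vertical axis) for miR-143 and miR-145, each ± SE of the edgeR fit, and the median of all tested miRNAs, under 5 ways of scaling the libraries (horizontal axis). The 3 values shift together from scaling to scaling, because rescaling moves all miRNAs by nearly the same amount. Of these scalings, miR-143 is on the positive side only with library totals alone (0.32).

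On the TMM scale the groups lay apart for 1 of the 2 members, miR-145, and for 44.7% of all tested miRNAs (20.5% lower in adipocytes). On the RPM scale they lay apart for 0 of 2, against 46.6% of tested miRNAs (7.97% lower in adipocytes). The reads of both members added together, which are mostly those of miR-143, were 3.16% ± 0.599 of all miRNA reads for adipocytes and 2.73% ± 0.611 for preadipocytes (n = 3 each, two-sided exact permutation p = 0.6). In the edgeR fit the log2 difference of the sum was -0.41 (SE 0.28, edgeR BH-adjusted p = 0.32), and by 0.21 with library totals alone.

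A ratio of the members within a library does not depend on any of these scalings. It came to 13.7, 22 and 25.3 miR-143 reads per miR-145 read in adipocyte replicates 1, 2 and 3. Preadipocyte replicates 1, 2 and 3 gave 6.49, 9.88 and 7.41. Every adipocyte library was above every preadipocyte library, and adipocyte replicate 1 was the adipocyte library nearest to them. The widest 95% Clopper-Pearson interval, that of adipocyte replicate 3, ran from 24.9 to 25.6 and covers counting error only. On the log2 scale the means were 4.30 ± 0.46 and 2.96 ± 0.31, a difference of 1.33 (two-sided exact permutation p = 0.1, again the smallest possible, n = 3 each). Put another way, miR-145 made up 4.99% ± 1.6 of the reads of the pair in adipocytes and 11.5% ± 2.11 in preadipocytes. The table marks the row of miR-143 as hairpin and that of miR-145 as mature, neither has separate 5p and 3p rows, and no source used here says what this means for the counting. The ratio is therefore one of reads, not of molecules, and only its comparison between libraries is used.

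**Figure D3:**
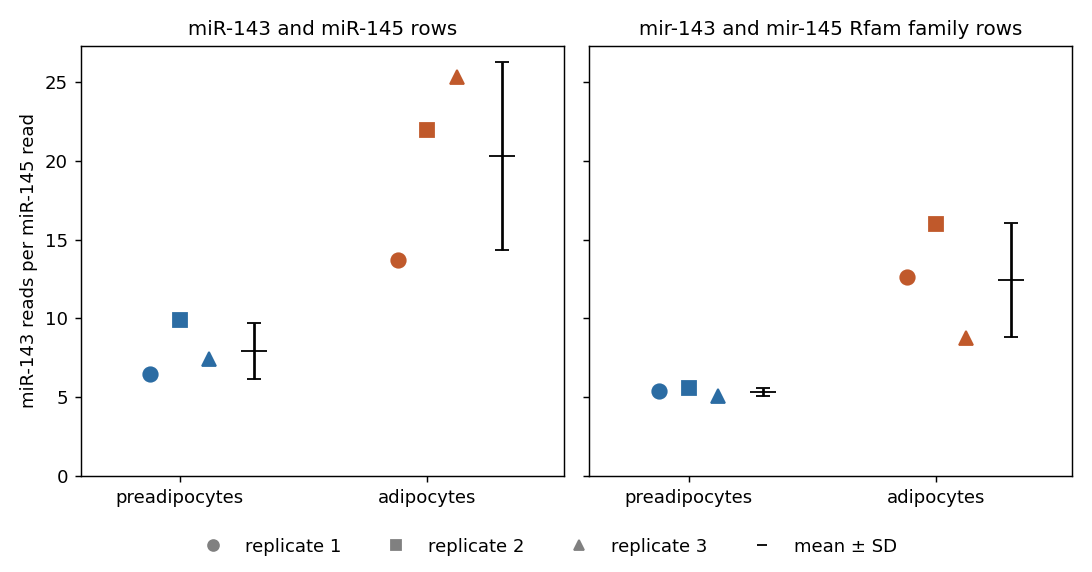
Reads of miR-143 per read of miR-145 in each library (vertical axis), from the known miRNA rows (left) and from the Rfam family rows (right), with group mean ± SD in black (n = 3). In both panels the 3 adipocyte libraries lie above the 3 preadipocyte libraries, and adipocyte replicate 3 is the highest of its group on the left (25.3) and the lowest on the right (8.74).

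The same comparison was made in an edgeR fit with the miR-143 reads of a library as its size, so that each miRNA is tested relative to miR-143. There the log2 difference of the ratio was 1.30 (SE 0.33, edgeR BH-adjusted p = 0.0552 over 426 miRNAs), which missed the threshold. The number of reads per miR-143 read did not overlap between the groups for 39.2% of the 413 other tested miRNAs, and for 10.2% it was lower in adipocytes, as it was for miR-145. Among the 210 of these with a mean of at least 10 CPM, miR-145 ranked 16 from the lowest by this difference, and their median was 0.46 on the log2 scale against -1.33 for miR-145.

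The table holds a second reading of the pair. It lists the Rfam families mir-143 and mir-145 in rows of their own, and no source used here tells whether these rows share reads with the known miRNA rows, so they are not independent evidence. The mir-143 family row held 36148, 24698 and 38412 reads in adipocytes (replicates 1, 2 and 3) and 18750, 9805 and 39401 in preadipocyte replicates 1, 2 and 3. The mir-145 family row held 2860, 1546 and 4396 reads in adipocytes and 3497, 1766 and 7747 in preadipocytes, in the same order. Preadipocyte replicate 3, the library with the most miRNA reads, held the most reads of both rows, but per library total the mir-143 family was highest in adipocyte replicate 1 (2404 RPM, against 1768 RPM in preadipocyte replicate 3). With TMM scaling over rows that include the Rfam families, preadipocyte replicate 3 was again the highest for mir-143 (2194 CPM). Adipocyte replicates 1 and 3 were at 1611 and 1752 CPM. The ratio of the 2 rows was 12.6, 16 and 8.74 in adipocyte replicates 1, 2 and 3 and 5.36, 5.55 and 5.09 in preadipocyte replicates 1, 2 and 3, again without overlap. Its log2 difference was 1.18 (exact permutation p = 0.1, n = 3 each).

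In an edgeR fit that included the Rfam miRNA rows, 0 of these 2 family rows passed, beside 5.59% of 501 rows in either direction. The mir-145 family had a level of 132 ± 67 CPM for adipocytes against 263 ± 152 CPM for preadipocytes (edgeR BH-adjusted p = 0.238). For the mir-143 family these levels were 1477 ± 362 and 1380.3 ± 740 CPM, with an edgeR BH-adjusted p of 0.871. The Rfam reads were not a fixed part of the known-row reads. For miR-145 there were 20.8 Rfam reads per 100 known-row reads in adipocyte replicate 3, against 4.97 to 9.33 in the other 5 libraries. For miR-143 there were 6.26 to 7.2 in adipocytes and 3.68 to 6.41 in preadipocytes. When the known and Rfam rows of each member were added, the log2 difference of the ratio was 1.29.

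Other neighbouring miRNAs were compared in the same way, since members of 1 cluster can also part from each other. A list of 34 pairs was chosen from genome neighbours, and in 28 of them both rows had a mean of at least 10 reads. The groups lay apart in 11 of the 28 (39.3%), and the median size of their log2 difference was 0.53. The 1.33 of miR-143 to miR-145 was matched or exceeded by 6 of the 28. The largest was that of miR-127 to miR-136, which lie in the imprinted DLK1-DIO3 domain, at -4.10, and the smallest that of miR-15b to miR-16b, at -0.07. In preadipocyte replicates 1, 2 and 3 miR-136 was at only 0.547, 0.163 and 0.428 CPM, so the ratio there rested on few reads. The pair ranked 2 by size, miR-23b-3p to miR-27b (-3.68), overlapped between the groups. Its log2 ratio was -0.57 in preadipocyte replicate 1, against -9.18 and -8.45 in replicates 2 and 3. The pairs ranked 3 to 6 did not overlap. The table does not record how reads of miRNAs with near-identical copies elsewhere were divided, and several of the 28 pairs hold such miRNAs. The families mir-143 and mir-145 have 1 known row each in the table.

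**Figure D4:**
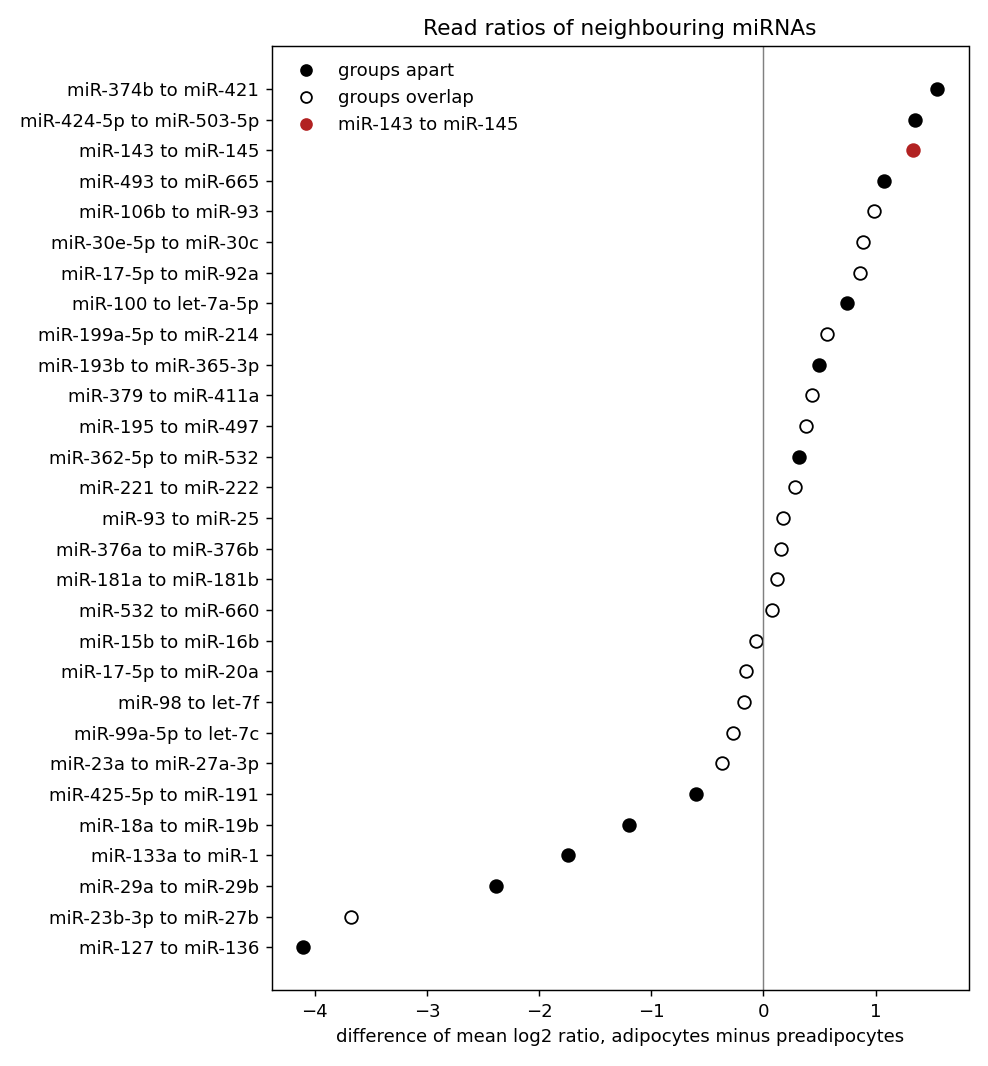
Difference of the mean log2 read ratio, adipocytes minus preadipocytes (horizontal axis), for miR-143 to miR-145 (red) and 28 other pairs of neighbouring miRNAs, filled where the 3 libraries of each group do not overlap. The pair lies at 1.33 and 6 of the others are at least as far from 0.

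Across the 6 libraries the levels of the members (log2 CPM on the TMM scale) had a Pearson r of 0.79 with each other, as a description over libraries that share their scaling. Within each group replicate 2 was the lowest library for both members on that scale. On the RPM scale this held for miR-143 in both groups and for miR-145 in preadipocytes, while in adipocytes the lowest miR-145 library was replicate 3. Among 200 other known miRNAs with a mean of at least 10 CPM, the partner was not the closest match of either member. By r, miR-145 ranked 10 for miR-143, and miR-143 ranked 17 for miR-145.

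The miRNAs most like miR-143 over the 6 libraries were miR-181a (r = 0.96), miR-421 (0.89), miR-455-5p (0.87), miR-450b (0.85) and miR-29a (0.85). None of these 5 passed the test between the groups, with edgeR BH-adjusted p from 0.302 to 0.598. Those most like miR-145 were miR-181c (0.95), miR-23a (0.92), miR-24-3p (0.90), miR-30d (0.88) and miR-455-3p (0.88). Of these, miR-181c and miR-24-3p fell in adipocytes (log2 difference -1.58 and -1.78, edgeR BH-adjusted p = 0.0481 and 0.0242), where 2.42% of all 414 tested miRNAs passed as lower. With 3 libraries in each group a high r can repeat the difference between groups, and these values are descriptions only.

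Among miRNAs described in the phenotype of smooth muscle cells, a list that holds the pair itself, 15 rows were tested, 0 rose and 3 fell, while 3.86% of all tested miRNAs passed as higher and 2.42% as lower. The median log2 difference was -0.29, against -0.02 for all tested miRNAs. The most abundant were miR-21-5p (-0.82, edgeR BH-adjusted p = 0.0637) and miR-143. The 3 that fell were miR-24-3p, miR-133a and miR-146a. The level of miR-24-3p, which is clustered with miR-23 and miR-27, was 2548 ± 653 CPM for adipocytes against 8739 ± 1517 CPM for preadipocytes. The muscle miRNA miR-133a was at 1.63 ± 0.344 and 5.99 ± 1.46 CPM. For miR-146a, a brake on inflammatory signalling, only 1, 1 and 4 reads were counted in the adipocyte libraries, against 199, 81 and 73 in the preadipocyte libraries, by replicate number. At an unadjusted p below 0.05 there were 6 of the 15, miR-145 among them, beside 141 of the 414 tested miRNAs. Of these 6, miR-29b alone was higher in adipocytes (log2 difference 2.50, edgeR BH-adjusted p = 0.0721). Its level was 680 ± 476 CPM for adipocytes and 120 ± 36 CPM for preadipocytes, with overlap.

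Of 17 tested rows of mesenchymal and fibroblast miRNAs, 2 rose and 0 fell, beside 16 higher and 10 lower of all 414, and the median log2 difference was 0.47, against -0.02 for all tested miRNAs. The most abundant after miR-21-5p was miR-27b, with 11097 ± 7248 CPM for adipocytes and 13909 ± 7907 CPM for preadipocytes (edgeR BH-adjusted p = 0.761). At an unadjusted p below 0.05 there were 6 of the 17, beside 141 of the 414 tested miRNAs. Of these 6, miR-21-5p (-0.82, edgeR BH-adjusted p = 0.0637) and miR-23b-3p (-6.47, edgeR BH-adjusted p = 0.0856) were lower in adipocytes and the others higher. In preadipocyte replicates 1, 2 and 3 miR-23b-3p was at 3245, 32.9 and 50.7 CPM, so replicate 1 stood far above the others. The 2 that rose were miR-100 (1.29, edgeR BH-adjusted p = 0.0293) and miR-199a-3p (8.70, edgeR BH-adjusted p = 2.62e-04). The row of the other arm, miR-199a-5p, did not pass (0.47, edgeR BH-adjusted p = 0.207), and its groups overlapped. In RefSeq 1 gene of miR-199a overlaps a gene of miR-3604, which lay the other way, with 28.9 ± 18.9 CPM for adipocytes against 3375 ± 1082 CPM for preadipocytes, and how the table divides reads between them is not recorded, so the value of miR-199a-3p is uncertain.

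Markers of other cell types were looked at because the pair is also found in the muscle and vessel wall. The endothelial miR-126 had estimates of the same sign as miR-145, and neither of its rows passed with edgeR. With DESeq2 1 of its 2 tested rows passed, as miR-145 did. On the TMM scale the groups lay apart for miR-126-3p and overlapped for miR-126-5p. The 2 rows of miR-126 summed to 44.9 to 91.1 RPM in adipocytes and 95.4 to 334 in preadipocytes. The reads of miR-126-3p were 1347, 891 and 836 in adipocyte replicates 1, 2 and 3 and 1645, 1685 and 7294 in preadipocyte replicates 1, 2 and 3, so preadipocyte replicate 3 stood far above the others. The log2 difference of miR-126-3p was -2.20 (SE 0.60, edgeR BH-adjusted p = 0.0637), and that of miR-126-5p was -1.88 (edgeR BH-adjusted p = 0.189). The part of endothelial RNA in the difference of miR-145 was not tested.

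The other markers were rare. Skeletal and cardiac muscle miRNAs, with 5 of 7 listed names in the table, summed to 38.4 to 55.4 RPM in adipocytes and 25 to 47.7 in preadipocytes, and of 3 tested rows miR-133a fell while miR-1 (-0.29) and miR-499 (0.61) did not pass. Blood miRNAs, with 6 of 6 in the table, summed to at most 1.6 RPM in adipocytes and 1.44 to 4.2 in preadipocytes. The only row tested was miR-451 (-2.33, edgeR BH-adjusted p = 0.0637), and it passed with DESeq2. Epithelial miRNAs, with 5 of 6 in the table, summed to 0.471 to 0.993 RPM in adipocytes and 0.459 to 0.895 in preadipocytes, and none was tested. Neuronal miRNAs, with 2 of 4 in the table, summed to 4.29 to 7.58 and 5.03 to 7.4 RPM, and neither arm of miR-9 passed. No row of these lists was at 0 in every library, and the part of these cells in the results was not tested.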

How the data were processed

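Small RNA of 6 samples was sequenced. Per the labels' protocols, gel-cut RNA of 18 to 30 nt gave PCR products selected at 100 to 120 bp. The submitters' processing notes name Bowtie2. The sources used here give no miRNA annotation, build or rule for reads matching several miRNAs. The deposited table holds whole-number read counts that the authors had not normalized, and TPM values that the authors made, found here to be the count over 1 constant per library. Columns were matched to samples by title.

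Differences were tested on the counts of the known and predicted miRNA rows (edgeR 4.0.16, R 4.3.3, with TMM, filterByExpr, glmQLFit, glmQLFTest, group only, two-sided, BH over the 365 known and 49 predicted miRNAs left). The 4 genome-feature rows (5.29% to 18.9% of the table) stayed out. The ratio was tested by exact permutation in SciPy 1.17.1. Alternatives used DESeq2 1.42.0, limma 3.58.1 on log2(TPM + 1) or log2(TPM + 0.1), other scalings and filters, a replicate block, and each library left out. Ratios of other pairs had 0.5 added to each count. The edgeR step was tested on simulated data.

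The miRNAs named are both members and their Rfam rows, the 5 of highest Pearson r with each, the 2 most abundant tested rows of each marker list and those past the threshold, and the pairs of largest and smallest difference. Also named are miR-29b and miR-23b-3p, which lay the other way from the median of their list. The pair of miR-23b-3p to miR-27b and the row of miR-199a-5p are named to show limits of other values. The members, lists and pairs were chosen with earlier results of these data known.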

Additional observations from a re-analysis of the deposited data

How the results depend on the processing

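The ratio of miR-143 to miR-145 kept its direction in all 11 alternatives, with log2 differences from 1.15 to 1.59, both reached with 1 library left out. Most of these could not have turned it. Every adipocyte library lay above every preadipocyte library, so leaving 1 out keeps the direction. Pairing by replicate number returns the same mean, and adding 0.5 hardly alters counts of this size. Other reads entered only with the Rfam rows, alone (1.18) or summed with the known rows (1.29). The exact permutation p of the ratio was 0.1 with all libraries and 0.2 with 1 left out. These are the smallest values the designs allow, so these tests could not pass and their p shows no stability. Summing all rows of each member could not give another value, since each has 1. The log2 difference of miR-145 passed in 4 of 20 alternatives, at -1.91 with upper-quartile factors, -1.81 with at least 10 CPM, -1.68 with known miRNAs alone and -1.68 with DESeq2, and ran from -2.07 to -1.40 with 1 library left out. The difference of miR-143 never passed. It turned positive in 4 of 20 alternatives, at 0.32 with library totals alone, 0.26 with limma on the deposited TPM with either pseudocount, and 0.23 with library totals and the genome-feature share as covariate, an alternative chosen after seeing the data. In the same 4, the summed pair was at 0.21, 0.16, 0.16 and 0.13. Other alternatives without TMM factors kept the difference of miR-143 negative, at -0.59 with upper-quartile factors, -0.34 with RLE factors, -0.34 with DESeq2 and -0.27 with library totals without miR-21-5p. The count of 26 miRNAs past the threshold was 49 with upper-quartile factors, 97 with library totals alone, 45 with at least 10 CPM, 59 with known miRNAs alone, 96 with DESeq2, 120 and 106 with limma on TPM at pseudocounts of 1 and 0.1, 109 with library totals and that covariate, and 1 to 148 with 1 library left out. The cause of these moves was not tested.

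No source used here says whether a replicate number marks a shared animal or culture. Same-numbered libraries deviated from their group means with correlations of 0.04, -0.31 and 0.02. With 3 libraries in each group these values cannot decide whether the numbers pair the samples. With the replicate number as a block 1 miRNA passed, miR-143 was at -0.30, miR-145 at -1.63 (edgeR BH-adjusted p = 0.125) and the summed pair at -0.40, and the paired log2 difference of the ratio was 1.33 (exact sign-flip p = 0.25, the smallest that 3 pairs allow). No library correlated best with the library of its own number. At this depth the counting intervals of both members are narrower than the spread between libraries of a group.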
